A study of Homo sapiens with 24 samples.

Results

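The genes UNC13A, NMNAT2, STMN2, NEFH, TPPP3, ELAVL3, PHACTR1, GRIK2 and KCNJ6 were grouped as genes of the neuronal cytoskeleton and the synapse. Of these, ELAVL3 encodes an RNA-binding protein and NMNAT2 an enzyme of axon survival. The 9 genes were taken by symbol from a table of 14119 genes measured in mouse xenografts of the human colorectal cancer cell line COLO320DM, and all were found. A neuron keeps its shape with neurofilaments and microtubules, and it releases transmitter from vesicles that Munc13 proteins prime for fusion. Ligand-gated receptors and potassium channels then set how the receiving cell responds. Many genes of this kind are repressed outside neurons by the transcription factor REST, and part of them are shared by neuroendocrine cells, including those of the gut.

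The tumours fall into 8 groups of 3 libraries: sh1487 on a doxycycline diet, sh1487 without doxycycline, shNT on doxycycline, shNT without doxycycline, and the same 4 groups with a cDNA. All groups thus carry a hairpin, sh1487 or shNT, and no group had the diet without one, so the effect of doxycycline and that of an induced hairpin cannot be told apart within a line. The diet began at an average tumour volume of 150 mm3 and lasted until collection on day 3, which the labels give as 72 hr. What sh1487 targets, which cDNA was added, the promoters, the age and strain of the mice and whether a line is 1 clone are not given in the sources used here. A hairpin and the line that carries it can therefore not be told apart, and since separate tumours are not stated, p-values reflect the spread of these libraries alone, which may be technical. In bulk tumours, fewer cells of a type and less RNA per cell cannot be told apart.

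The members were selected on their measured CPM in these libraries, with earlier results known. The values taken as used for that choice are those of the response to doxycycline in sh1487 without cDNA and in the difference between the sh1487 and shNT lines without cDNA, and both are given as description, with no test. Tests read as results were kept to comparisons of libraries outside sh1487 without cDNA. That the cDNA libraries had no part in the choice is assumed and not known. The shNT libraries without cDNA enter the line difference used for the choice, so tests that include them are not free of it. The spread in each test was estimated over all 24 libraries, those of sh1487 without cDNA among them. Values are CPM, reads of a gene scaled to an effective library size, and changes are differences of log2(CPM + 1), a scale that understates the change of low genes. A gene was called at a limma adjusted p under 0.05.

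Recovered reads ranged from 44004848 to 80202279 per library, so that 3 reads, taken as the floor of detection, stand at 0.0368 to 0.0711 CPM. This floor covers counting error only. The mitochondrial share of reads was highest, at 21.5%, in 1 library, replicate 3 of shNT on doxycycline with cDNA. CTNNB1, the β-catenin gene named in the series title, averaged 43.3 ± 1.99 CPM in sh1487 on doxycycline and 226 ± 10.4 CPM in sh1487 without it (SD, n = 3 each). With cDNA it averaged 594 ± 21.2 CPM in sh1487 on doxycycline and 507 ± 41.3 CPM in sh1487 without. In shNT CTNNB1 averaged 310 ± 16.6 CPM on doxycycline and 257 ± 4.87 CPM without. In shNT with cDNA it averaged 471 ± 130 CPM on doxycycline and 658 ± 117 CPM without. Of 12 markers of colorectal epithelium, 9 were in the table and summed to 1560 to 2340 CPM, mostly from the intestinal transcription factor CDX2, while EPCAM was at most 2.59 CPM and CDH1 at most 1.12 CPM as group means. Of 11 markers of mature neurons, 8 were in the table, summing to 234 to 239 CPM in sh1487 on doxycycline, 274 to 302 CPM in sh1487 without, 87.5 to 90.1 CPM in shNT on doxycycline and 72.4 to 81.4 CPM in shNT without. With cDNA they summed to 376 to 390 CPM in sh1487 on doxycycline and 217 to 251 CPM in sh1487 without. In shNT with cDNA the sums were 87.5 to 110 CPM on doxycycline and 75.9 to 88.1 CPM without. SNAP25 made up most of these sums, and the group means of MAP2 were at most 1.73 CPM and of RBFOX3 at most 1.82 CPM. As group means, SNAP25, SYN1, MAP2 and TUBB3 were higher in every sh1487 group than in any shNT group. RBFOX3 and SLC17A7 were lower in every sh1487 group than in any shNT group, and GAD1 and TH did not separate the lines. Neuroendocrine markers, 9 of 10 in the table, summed to 1180 to 1200 CPM in sh1487 on doxycycline, 686 to 702 CPM in sh1487 without, 814 to 865 CPM in sh1487 with cDNA on doxycycline, 581 to 625 CPM in that line without, 400.0 to 414 CPM in shNT on doxycycline and 289 to 315 CPM in shNT without. UCHL1 had the highest mean of these neuroendocrine markers in every group, from 268 to 703 CPM, and neither it nor ENO2 separated the lines. CHGA, CHGB, SYP, SCG2, SCG3 and PCSK1 were higher in every sh1487 group than in any shNT group. NCAM1 went the other way, at 0.84 CPM in sh1487 on doxycycline and 0.595 CPM without, against 10.7 CPM in shNT on doxycycline and 17.6 CPM without. Schwann cell markers, 3 of 8 in the table, summed to at most 10.7 CPM. Fibroblast and pericyte markers, 7 of 9 in the table, summed to 63.7 to 83.1 CPM in the sh1487 libraries and 111 to 156 CPM in the shNT libraries. Leukocyte markers, 3 of 8 in the table, summed to 36.4 to 59.1 CPM in the sh1487 libraries and 26.0 to 39.8 CPM in the shNT libraries. The part of other cell types in the results, those of the mouse host among them, was not tested.

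UNC13A and NMNAT2 were on in the sh1487 lines and almost off in the shNT lines, on either diet, with or without cDNA. UNC13A, which encodes Munc13-1, the protein that primes synaptic vesicles for release (ENSG00000130477, chromosome 19, 17601328 to 17688365, minus strand, GRCh38), ranged from 60.8 to 92.3 CPM over the 12 sh1487 libraries and from 0.0823 to 0.283 CPM over the 12 shNT libraries. The shNT values correspond to 5 to 19 reads a library, so the gene was detected there above the floor of 3 reads. NMNAT2, an enzyme of NAD synthesis whose supply keeps axons alive (ENSG00000157064, chromosome 1, 183248237 to 183418602, minus strand), ranged from 65.4 to 92.5 CPM in the sh1487 libraries and from 0.261 to 0.701 CPM in the shNT libraries. No library of one hairpin came near those of the other for either gene.

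Because both genes differ between the lines on either diet, the windows around their annotated starts are shown. They run from 250 bases before to 50 after a RefSeq start (GRCh38.p14), and capitals mark matches on either strand to the outer parts of the RE1 element to which REST binds, a left part TTCAGCACC and a right part searched as 1 fixed string. These do not overlap each other. RefSeq windows were matched for 5 of the 9 genes, 13 windows in all, for UNC13A, NMNAT2, PHACTR1, GRIK2 and KCNJ6. The UNC13A window (chr19:17688305-17688604, minus strand) and the windows of both NMNAT2 starts (chr1:183418331-183418630 and chr1:183304825-183305124, minus strand) read:
UNC13A: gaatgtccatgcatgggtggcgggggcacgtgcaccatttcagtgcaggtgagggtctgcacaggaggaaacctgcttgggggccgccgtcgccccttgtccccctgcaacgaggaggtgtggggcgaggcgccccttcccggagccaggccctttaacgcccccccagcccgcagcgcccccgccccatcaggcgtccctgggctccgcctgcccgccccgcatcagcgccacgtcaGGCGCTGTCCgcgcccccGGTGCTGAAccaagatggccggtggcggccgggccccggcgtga
NMNAT2 upstream start: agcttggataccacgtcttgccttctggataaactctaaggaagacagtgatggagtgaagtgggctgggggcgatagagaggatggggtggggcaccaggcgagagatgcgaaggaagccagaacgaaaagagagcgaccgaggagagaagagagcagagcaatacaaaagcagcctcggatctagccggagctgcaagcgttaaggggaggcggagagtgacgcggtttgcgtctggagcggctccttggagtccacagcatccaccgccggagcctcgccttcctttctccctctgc
NMNAT2 downstream start: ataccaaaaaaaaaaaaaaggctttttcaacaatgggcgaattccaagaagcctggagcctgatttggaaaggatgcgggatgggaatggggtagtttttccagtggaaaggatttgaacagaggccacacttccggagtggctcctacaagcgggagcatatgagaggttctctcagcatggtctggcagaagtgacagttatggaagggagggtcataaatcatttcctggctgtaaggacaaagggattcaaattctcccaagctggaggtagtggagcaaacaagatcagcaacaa
The UNC13A window held both outer parts, each as its reverse complement, starting at bases 239 and 257 of the window with gcgccccc between them. Here and in all other windows the search asked only for presence of the parts. Their order and spacing were not searched, so a whole RE1 element is not shown. Among 35116 windows in the table, 0.376% held the left part, 0.259% held the right part and 6 windows (0.0171%) held both. No other window of these genes held either. The letters CTTTGAT and CTTTGAA, cores of the motif bound by TCF and LEF factors, were in 2.62% and 4.43% of all windows, and of these 13 windows CTTTGAT was in 0 and CTTTGAA in 1, a window of PHACTR1. A match is a description of letters and not of binding. REST itself, named here after its values were seen, ranged from 31.2 to 48.8 CPM in the sh1487 libraries and from 40.7 to 70.3 CPM in the shNT libraries.

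The changes of these 2 genes with doxycycline were small beside the difference between the lines. UNC13A stood at 64.1, 64.6 and 65.1 CPM in sh1487 on doxycycline, against 92.3, 84.0 and 88.0 CPM in sh1487 without, so the groups did not overlap and the means stood at a ratio of 0.733. With cDNA the order was the other way, at 75.2, 84.8 and 71.6 CPM on doxycycline against 68.0, 68.9 and 60.8 CPM without. UNC13A rose with doxycycline in sh1487 with cDNA by 0.22 (SE 0.0706, limma adjusted p = 9.48e-03). Of 16 alternatives, that call was lost without the second library on doxycycline (0.15), without the third library off it (0.17) and with a pseudocount of 0.1 (0.23), over a range of adjusted p from 1.79e-03 to 0.254. NMNAT2 stood at 70, 66.9 and 72 CPM in sh1487 on doxycycline, against 90.3, 83.9 and 92.5 CPM in sh1487 without. With cDNA, NMNAT2 stood at 68.2 ± 2.45 CPM on doxycycline and 68.9 ± 4.89 CPM without (SD, n = 3 each), a change of -0.01 (SE 0.0875) that did not pass (limma adjusted p = 0.91). In the shNT lines the change with doxycycline did not pass for either gene, with log2 changes from -0.01 to 0.14 and limma adjusted p of 0.221 or more.

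**Figure D1:**
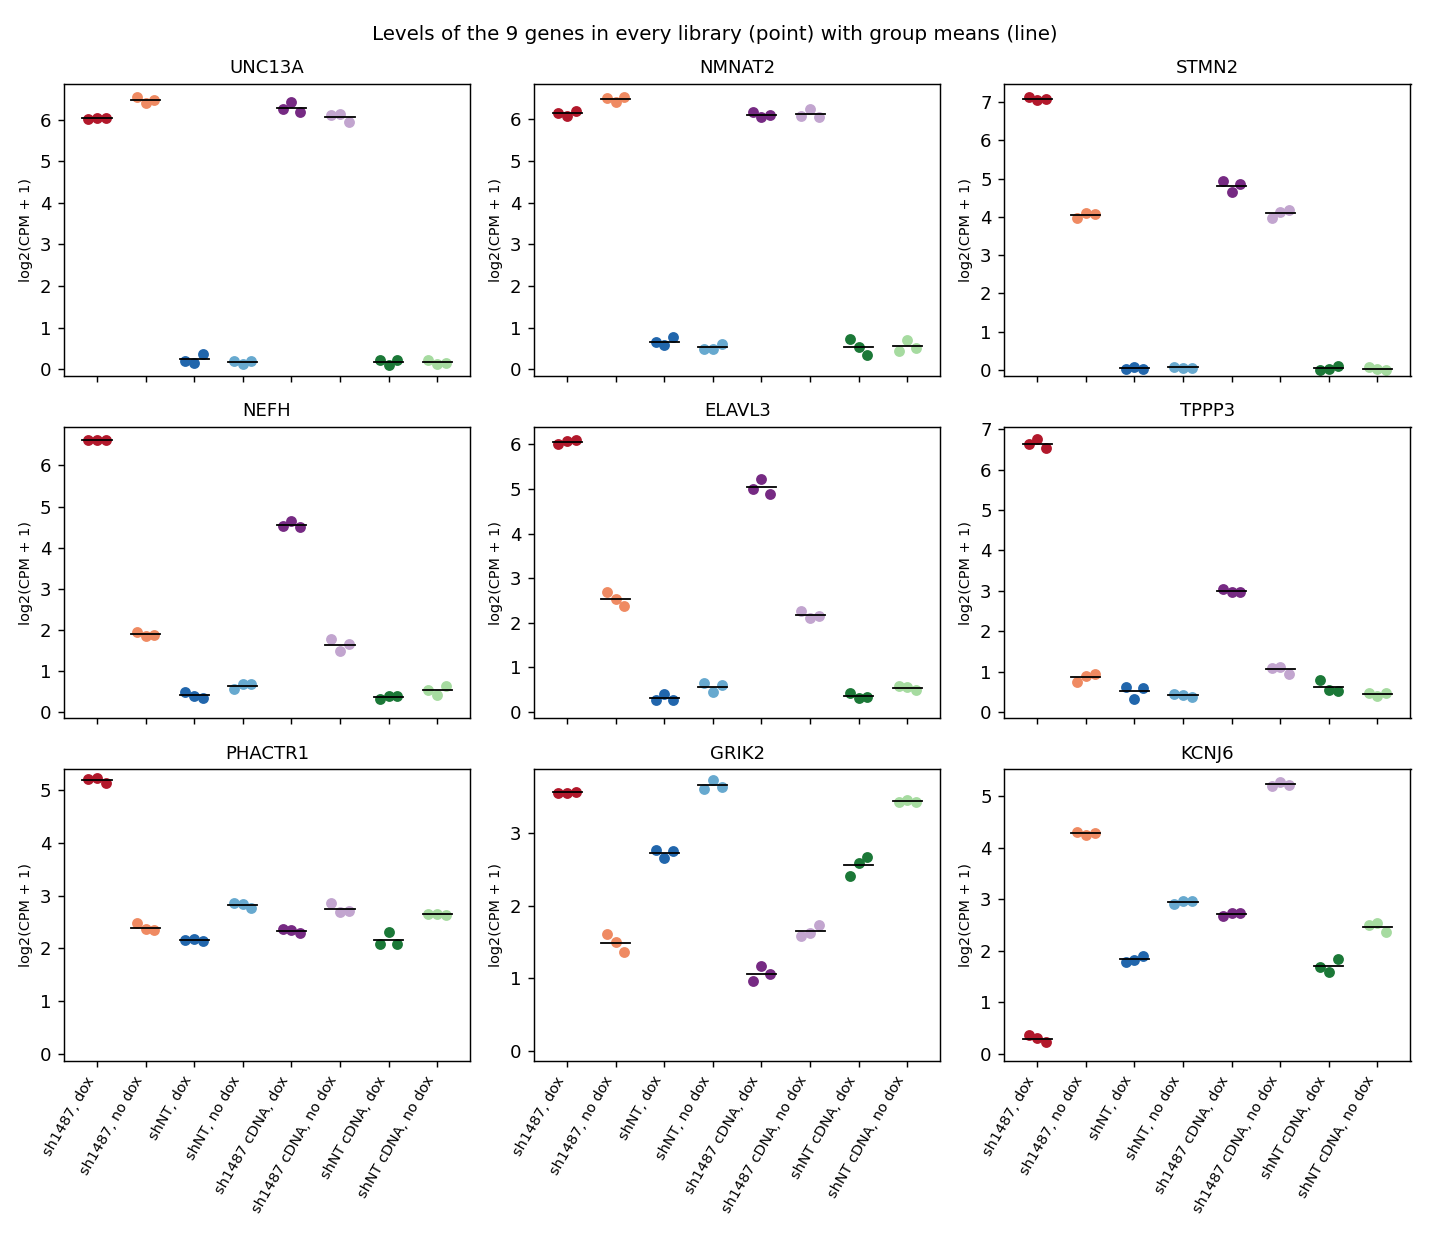
Level of each gene as log2(CPM + 1) (vertical axis) in the 8 groups (horizontal axis), 1 point a library and a line at the mean of 3. UNC13A and NMNAT2 are high in all 4 sh1487 groups, STMN2, NEFH, ELAVL3 and TPPP3 are highest in sh1487 on doxycycline and next in the same line with cDNA, and GRIK2 and KCNJ6 are measured in both hairpins.

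The cytoskeletal genes STMN2, NEFH and TPPP3 and the RNA-binding gene ELAVL3 shared another pattern: higher on doxycycline than without it in sh1487, less so with cDNA, and under 1 CPM in every shNT library. STMN2, whose product stathmin-2 binds tubulin and maintains axons (ENSG00000104435, chromosome 8, 79610814 to 79666175, plus strand), stood at 139, 133 and 134 CPM in sh1487 on doxycycline, against 14.7, 16.1 and 15.9 CPM in sh1487 without. In sh1487 with cDNA STMN2 stood at 29.9, 24 and 28.1 CPM on doxycycline, against 14.7, 16.5 and 17.2 CPM without. All libraries on the diet lay above all those without it in both lines. The rise with cDNA was 0.72 (SE 0.0706, limma adjusted p = 1.49e-08), or 1.69 times as a ratio of means, while the means without cDNA stood at a ratio of 8.68. In the 12 shNT libraries STMN2 had 0 to 4 reads, at most 0.0711 CPM, so no fold against them is given.

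NEFH, which encodes the heavy neurofilament subunit of large axons (ENSG00000100285, chromosome 22, 29480230 to 29491390, plus strand), stood at 96.5, 98.1 and 96.8 CPM in sh1487 on doxycycline, against 2.87, 2.59 and 2.7 CPM in sh1487 without, a ratio of means of 35.7. With cDNA it stood at 22.1, 24.1 and 21.6 CPM on doxycycline, against 2.43, 1.79 and 2.16 CPM without. The rise with cDNA was 2.92 (SE 0.0728, limma adjusted p = 1.42e-18), a ratio of means of 10.6. In shNT the direction was the other way, at 0.333 ± 0.0623 CPM on doxycycline and 0.564 ± 0.072 CPM without (SD, n = 3 each). NEFH fell there by 0.23 (SE 0.0728, limma adjusted p = 1.65e-02). That call was lost without the second or the third library on doxycycline, without the second or the third library without it, and with a pseudocount of 5, over a range of adjusted p from 1.13e-03 to 0.194. In shNT with cDNA the fall of 0.17 did not pass (limma adjusted p = 8.53e-02).

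ELAVL3, a neuronal protein that binds AU-rich RNA and steers its splicing and stability (ENSG00000196361, chromosome 19, 11451326 to 11481046, minus strand), had, of these 4 genes, the smallest gap between the doxycycline changes in the sh1487 lines with and without cDNA. It stood at 63.1, 66.7 and 68.0 CPM in sh1487 on doxycycline, against 5.47, 4.81 and 4.2 CPM in sh1487 without. With cDNA it stood at 31.2, 36.4 and 28.5 CPM on doxycycline, against 3.83, 3.27 and 3.47 CPM without. The change was 3.53 without cDNA and the rise 2.86 with it (SE 0.0862, limma adjusted p = 3.91e-17), and no library on the diet overlapped one without. In shNT, ELAVL3 stood at 0.239 ± 0.0649 CPM on doxycycline and 0.48 ± 0.0977 CPM without (SD, n = 3 each), and fell by 0.26 (SE 0.0862, limma adjusted p = 2.36e-02). That call was lost without the first or the third library on doxycycline, without the first or the third library without it, and with a pseudocount of 5, over a range of adjusted p from 2.86e-04 to 0.389.

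TPPP3, a tubulin polymerization-promoting protein (ENSG00000159713, chromosome 16, 67389809 to 67393535, minus strand), had the highest ratio of means with doxycycline among the 9 in sh1487 without cDNA, and a lower one than NEFH and ELAVL3 with cDNA. It stood at 98.6, 106 and 92.0 CPM in sh1487 on doxycycline, against 0.684, 0.865 and 0.943 CPM in sh1487 without, a ratio of means of 119. With cDNA it stood at 7.24, 6.90 and 6.88 CPM on doxycycline, against 1.15, 1.19 and 0.946 CPM without. The rise with cDNA was 1.94 (SE 0.0825, limma adjusted p = 1.77e-14), a ratio of means of 6.40. In shNT the change did not pass, without cDNA (0.09, limma adjusted p = 0.398) or with it (0.17, limma adjusted p = 0.109).

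Per length of the gene model, which allows levels to be set side by side, the group means in sh1487 on doxycycline were 57.3 CPM per kb for STMN2, 37.7 for TPPP3, 25.7 for NEFH and 13.8 for ELAVL3. UNC13A and NMNAT2 reached at most 7.86 and 12.4 CPM per kb in any sh1487 group. PHACTR1 reached 3.18, KCNJ6 1.86 and GRIK2 1.59 CPM per kb in the group where each was highest.

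PHACTR1, GRIK2 and KCNJ6 were measured at 1 CPM or more in both hairpins, and doxycycline lowered all 3 in shNT, in shNT with cDNA and in sh1487 with cDNA. PHACTR1, a regulator of actin and of protein phosphatase 1 (ENSG00000112137, chromosome 6, 12716805 to 13290484, plus strand), stood at 35.9, 36.7 and 34.2 CPM in sh1487 on doxycycline, against 4.58, 4.12 and 4.05 CPM in sh1487 without. In every other line the libraries on the diet lay below those without it. PHACTR1 stood at 4.16, 4.08 and 3.87 CPM in sh1487 with cDNA on doxycycline, against 6.29, 5.41 and 5.50 CPM without, and fell by 0.42 (SE 0.0686, limma adjusted p = 2.02e-05). It fell in shNT by 0.66 (3.46 ± 0.0513 CPM on doxycycline and 6.06 ± 0.268 CPM without, limma adjusted p = 1.86e-07, SD, n = 3 each). In shNT with cDNA it fell by 0.49 (limma adjusted p = 2.26e-05). Exons of PHACTR1 share 700 bases with TBC1D7 on the other strand, and TBC1D7 stood at 53.7 CPM in sh1487 on doxycycline and 16.8 CPM in sh1487 without as group means. The library kit keeps strand, but whether counting used it is not given in the sources used here, so the level of PHACTR1 is uncertain by the reads of that overlap.

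GRIK2, the kainate receptor subunit GluK2, a glutamate-gated ion channel (ENSG00000164418, chromosome 6, 101181257 to 102070083, plus strand), was lower in sh1487 than in shNT without doxycycline, with and without cDNA. It stood at 10.8, 10.8 and 10.9 CPM in sh1487 on doxycycline, against 2.05, 1.83 and 1.58 CPM in sh1487 without. With cDNA the order was reversed, at 0.95, 1.24 and 1.08 CPM on doxycycline against 2.00, 2.08 and 2.34 CPM without, a fall of 0.59 (SE 0.0744, limma adjusted p = 6.41e-07). In shNT it stood at 5.82, 5.35 and 5.77 CPM on doxycycline, against 11.2, 12.4 and 11.5 CPM without, and fell by 0.93 (limma adjusted p = 3.77e-09). In shNT with cDNA it fell by 0.89 (limma adjusted p = 1.75e-08). The level in sh1487 on doxycycline thus came near that of shNT without doxycycline, and the 2 groups did not overlap.

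KCNJ6, which encodes GIRK2, a potassium channel opened by G proteins at inhibitory synapses (ENSG00000157542, chromosome 21, 37607376 to 38121345, minus strand), was lower on doxycycline in all 4 lines. It stood at 0.281, 0.233 and 0.167 CPM in sh1487 on doxycycline, or 11 to 21 reads, against 18.7, 18 and 18.4 CPM in sh1487 without. With cDNA it stood at 5.40, 5.66 and 5.60 CPM on doxycycline, against 35.8, 37.5 and 36.1 CPM without, and fell by 2.52 (SE 0.0648, limma adjusted p = 2.36e-18). The means without doxycycline stood at 80.8 times those on it in sh1487, and 6.57 times with cDNA. In shNT it stood at 2.44, 2.51 and 2.74 CPM on doxycycline, against 6.47, 6.82 and 6.79 CPM without, and fell by 1.11 (limma adjusted p = 2.84e-11). In shNT with cDNA it fell by 0.76 (limma adjusted p = 2.05e-08). The window around its RefSeq start, shown as that of the member with the largest fall (chr21:37916408-37916707, minus strand), held none of the letters searched:
KCNJ6: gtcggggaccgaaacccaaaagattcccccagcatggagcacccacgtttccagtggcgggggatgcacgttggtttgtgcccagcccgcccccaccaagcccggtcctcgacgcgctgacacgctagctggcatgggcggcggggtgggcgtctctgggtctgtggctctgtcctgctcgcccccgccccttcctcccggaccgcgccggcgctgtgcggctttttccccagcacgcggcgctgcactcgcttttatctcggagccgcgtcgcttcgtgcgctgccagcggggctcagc

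**Figure D2:**
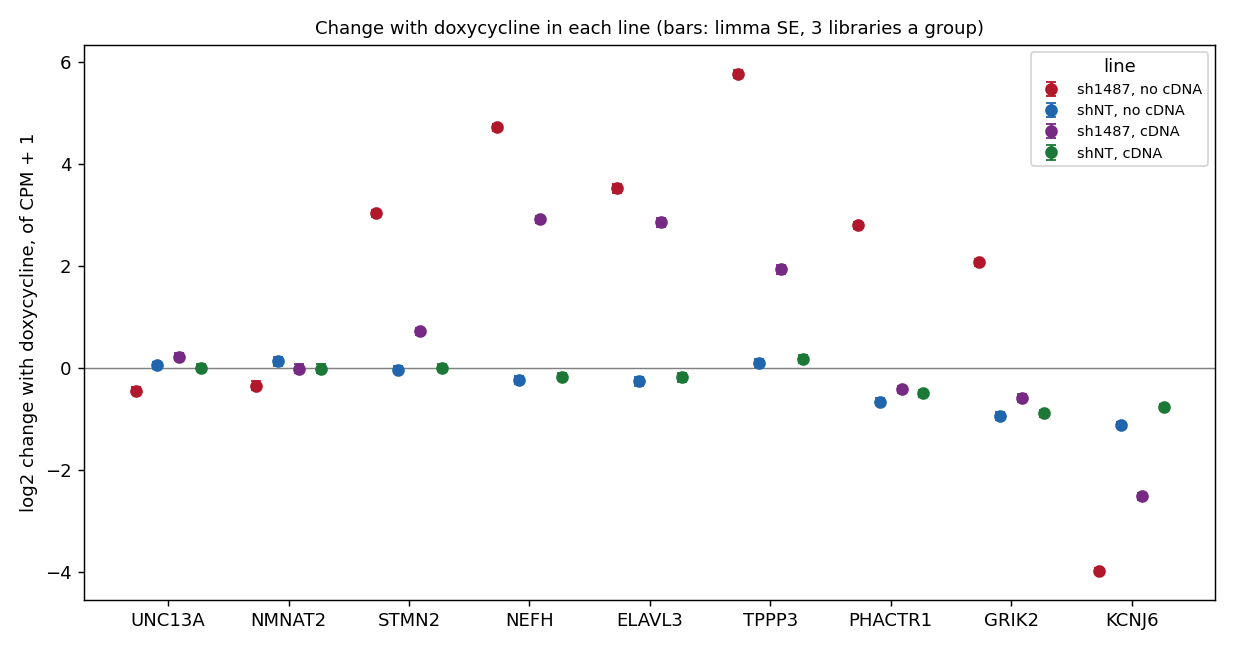
Change with doxycycline (vertical axis, log2 of CPM + 1, on the diet minus without) for each gene (horizontal axis) in the 4 lines, with limma SE bars, mostly smaller than the points. TPPP3 reaches 5.77 and KCNJ6 -3.98 in sh1487 without cDNA, and PHACTR1 and GRIK2 are above 0 there and below 0 in the other 3 lines.

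Counted over the 9 genes, doxycycline raised 5 and lowered 3 in sh1487 with cDNA, where limma called 59.6% of all 13832 genes tested, 28.3% as higher and 31.3% as lower. In shNT it raised 0 and lowered 5, against 37.2% of all genes called, 18.5% as higher and 18.7% as lower. At an unadjusted limma p under 0.05 the number raised in shNT was also 0, and at an adjusted p under 0.05 it was 0 with edgeR and 0 with DESeq2. In shNT with cDNA it raised 0 and lowered 3, against 31.9% of all genes called, 16.3% as higher and 15.6% as lower. At an unadjusted limma p under 0.05 the number raised there was 1, TPPP3, and at an adjusted p under 0.05 it was 0 with edgeR and 0 with DESeq2. Over all genes, 547 were called there with only the groups compared in the fit and 2571 without replicate 2 of shNT with cDNA off doxycycline, against 4406, and 3 members were called in both. In sh1487 without cDNA all 9 would be called, 6 as higher and 3 as lower, against 75.0% of all genes, 37.4% as higher and 37.5% as lower, which is no result because that response was used to choose them. All 9 passed the filter on low values, but 6 of them, UNC13A, NMNAT2, STMN2, NEFH, ELAVL3 and TPPP3, were under 1 CPM in all 12 shNT libraries and passed through the sh1487 libraries alone.

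Whether doxycycline acted otherwise in sh1487 than in shNT was tested as a difference of effects with cDNA present. The effect was higher in sh1487 by 3.09 for NEFH (SE 0.103, limma adjusted p = 1.11e-15), by 3.04 for ELAVL3 (SE 0.122, adjusted p = 1.90e-14) and by 1.76 for TPPP3 (SE 0.117, adjusted p = 1.17e-10). It was lower by 1.75 for KCNJ6 (SE 0.0917, limma adjusted p = 2.28e-12). STMN2 differed by 0.71 (limma adjusted p = 6.63e-06), a call lost with edgeR (0.64, adjusted p = 0.645) and DESeq2 (0.65, adjusted p = 0.631) on recovered reads, where the shNT arms hold 0 to 3 reads a library. GRIK2 differed by 0.30 (limma adjusted p = 2.46e-02), a fall less deep in sh1487. That call was lost in 7 of 22 alternatives (adjusted p from 2.07e-05 to 0.801), among them without the second library of sh1487 with cDNA on doxycycline, without the first of that line without doxycycline and without the first of shNT with cDNA on doxycycline, and it is on a scale that depends on the low level in sh1487. In shNT the genes NEFH, ELAVL3, TPPP3 and STMN2 lie under 1 CPM, where log2(CPM + 1) compresses any change, so their difference rests mostly on the change in sh1487. For NEFH, ELAVL3 and TPPP3 the call held in all 22 alternatives, no filter among them. The difference did not pass for UNC13A (0.21, limma adjusted p = 8.69e-02, passing in 3 of 22 alternatives: library-size scaling, a pseudocount of 5 and without replicate 3 of sh1487 with cDNA on doxycycline, at 3.30e-02, 2.78e-02 and 4.50e-02), NMNAT2 (0.00, adjusted p = 0.996) or PHACTR1 (0.07, SE 0.097, adjusted p = 0.56). The 6 calls stand against 46.9% of all genes, and the 5 higher against 22.3%. STMN2, NEFH, ELAVL3 and TPPP3 passed the filter on low values through sh1487 libraries alone, so these shares are not a like background for them. Leaving out the library with 21.5% mitochondrial reads ended none of these 6 calls.

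The lines also differed without doxycycline. With cDNA, KCNJ6 averaged 36.5 CPM in sh1487 and 4.52 CPM in shNT, a difference of 2.77 (SE 0.0648, limma adjusted p = 5.10e-20), and GRIK2 averaged 2.14 CPM in sh1487 and 9.89 CPM in shNT, a difference of -1.79 (SE 0.0744, limma adjusted p = 2.38e-15). PHACTR1 did not pass (0.11, limma adjusted p = 0.178), at 5.73 CPM in sh1487 and 5.24 CPM in shNT. Of the 6 genes that reach 1 CPM only in sh1487, NEFH averaged 2.13 CPM in sh1487 and 0.45 CPM in shNT, ELAVL3 3.52 CPM in sh1487 and 0.455 CPM in shNT, and TPPP3 1.09 CPM in sh1487 and 0.372 CPM in shNT as group means. STMN2 averaged 16.1 CPM in sh1487, and shNT had 0 to 3 reads a library. For these 6 the filter itself asks for a difference, and no test is given. In this comparison limma called 65.0% of all genes, 32.4% as higher and 32.6% as lower. Without cDNA the order of the lines was the same for all 9 but PHACTR1, which averaged 4.25 CPM in sh1487 and 6.06 CPM in shNT.

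The cDNA alone, read in shNT without doxycycline, lowered KCNJ6 by 0.48 (4.52 CPM with cDNA and 6.69 CPM without, SE 0.0648, limma adjusted p = 1.23e-04), and none of the other 8 passed, where limma called 5.46% of all genes, 2.39% as higher and 3.07% as lower. That background was 755 genes in the full model and 62 with only the groups compared, and it was 231 or 454 without replicate 1 or 2 of shNT off doxycycline and 216 without replicate 3 of shNT with cDNA, with 1 member called in each. In sh1487 without doxycycline KCNJ6 was the other way, at 36.5 CPM with cDNA and 18.4 CPM without, given as description since the libraries without cDNA were used to choose the genes. On doxycycline the sh1487 lines with and without cDNA stood apart for every member but NMNAT2, at 68.2 CPM with cDNA and 69.6 CPM without. TPPP3 stood at 7.01 CPM with cDNA and 98.7 CPM without, PHACTR1 at 4.04 CPM with cDNA and 35.6 CPM without, GRIK2 at 1.09 CPM with cDNA and 10.8 CPM without, and KCNJ6 at 5.55 CPM with cDNA and 0.227 CPM without.

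The order of the 8 group means shows where neighbours cannot be separated. For UNC13A and NMNAT2 the 4 shNT groups overlapped from each to the next, as did the 4 shNT groups of STMN2 and NEFH. The upper groups were separate in STMN2, NEFH, ELAVL3 and TPPP3: sh1487 on doxycycline stood above the same line with cDNA on doxycycline, which stood above both sh1487 groups without doxycycline, with no overlap between these steps. TPPP3 in sh1487 without doxycycline overlapped shNT with cDNA on doxycycline. GRIK2 was highest in shNT without doxycycline at 11.7 CPM and lowest in sh1487 with cDNA on doxycycline at 1.09 CPM. KCNJ6 was highest in sh1487 with cDNA without doxycycline and lowest in sh1487 on doxycycline.

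Over the 24 libraries, UNC13A and NMNAT2 followed each other at a Pearson r of 0.999 of log2(CPM + 1), and NEFH followed ELAVL3 at 0.984 and TPPP3 at 0.961. GRIK2 and KCNJ6 stood at -0.592. These values describe 8 groups of 3 libraries that share their normalization, and genes are not independent replicates. The genes most like each member were PAX5 and CHRNB2, a neuronal nicotinic receptor subunit, for UNC13A (r 0.999 for both), UNC13A itself and CHGA, the chromogranin A gene, for NMNAT2 (0.999 for both), and CELF3, a neuronal RNA-binding protein, and CPT1C for STMN2 (0.998 and 0.996). They were HRC and FLT1 for NEFH (0.998 for both), TAC3 and GUCY2C for ELAVL3 (0.997 and 0.995), and TNNC1 and LRRN2 for TPPP3 (0.997 and 0.995). For GRIK2 they were TAPT1 and DHFR2 (0.97 and 0.967), for KCNJ6 NVL and SETDB2 (0.964 and 0.96), and for PHACTR1 CBLB and KLRD1 (0.98 and 0.966).

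Other genes of the same families gave values of their own. UNC13B, a second Munc13 gene, averaged 37.8 CPM in sh1487 on doxycycline and 57.6 CPM in sh1487 without, and 62.0 CPM in shNT on doxycycline and 61.1 CPM in shNT without, so it was on in both hairpins. With cDNA it fell in sh1487 by 0.32 (limma adjusted p = 1.34e-03), where UNC13A rose. INA, the neuronal filament gene for internexin, differed between the lines, at 154 CPM in sh1487 on doxycycline and 73.9 CPM without, against 2.38 CPM in shNT on doxycycline and 1.98 CPM without. With cDNA, INA rose with doxycycline in sh1487 by 0.47 and in shNT by 0.39 (limma adjusted p = 2.82e-05 and 9.38e-04). The difference of these effects did not pass (0.08, limma adjusted p = 0.597). NEFL, the light neurofilament gene, stood at 75.2 CPM in sh1487 on doxycycline and 69.5 CPM without. In shNT it was higher, at 99.3 CPM on doxycycline and 91.9 CPM without. Its change with doxycycline did not pass in sh1487 with cDNA (0.03, limma adjusted p = 0.75). STMN3, another stathmin, rose in sh1487 with cDNA to 136 CPM, against 64.1 CPM without doxycycline (1.08, limma adjusted p = 2.51e-12). ELAVL2, a neuronal relative of ELAVL3, fell there by 0.41 (limma adjusted p = 3.49e-03), and ELAVL1, the relative found in most cells, rose by 0.57 (limma adjusted p = 5.19e-07). KCNJ12, an inward rectifier channel, rose there by 1.29 (38.8 CPM on doxycycline and 15.4 CPM without, limma adjusted p = 4.10e-10), opposite to KCNJ6.

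**Figure D3:**
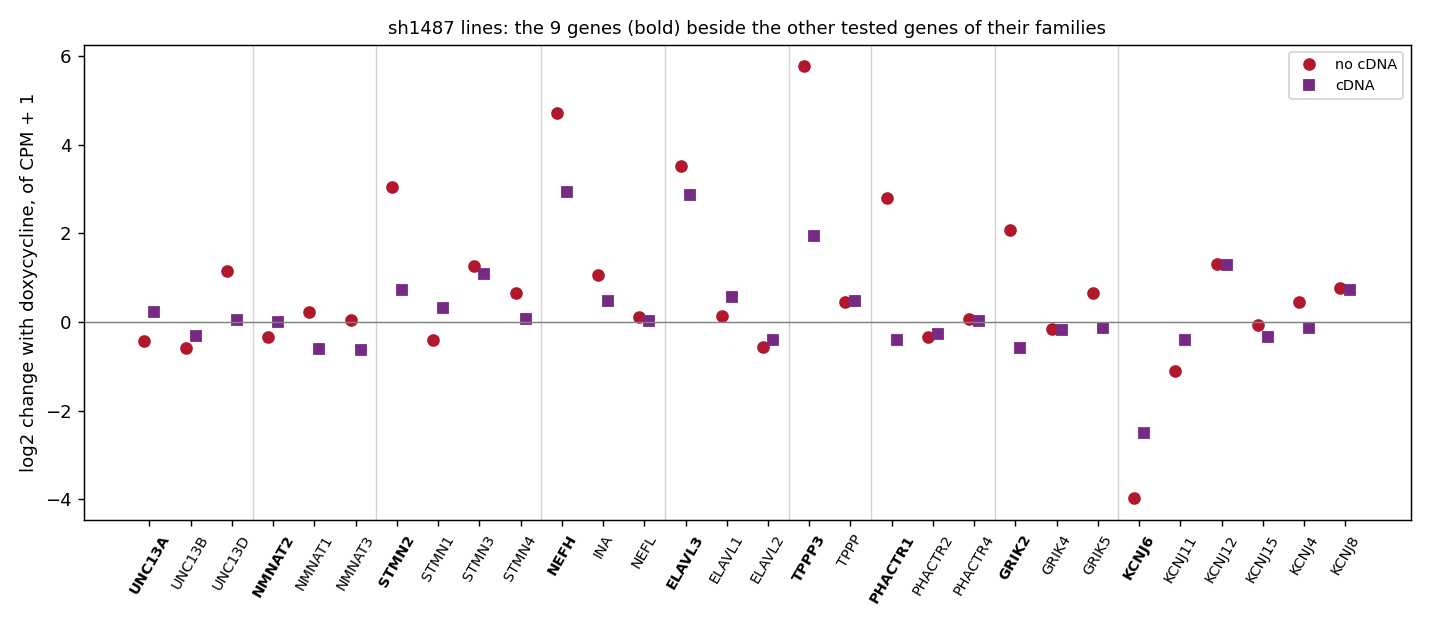
Change with doxycycline in the sh1487 lines (vertical axis, log2 of CPM + 1) without cDNA (circles) and with cDNA (squares) for the 9 genes in bold and the other tested genes of their families (horizontal axis). NEFH, ELAVL3 and TPPP3 stand above their relatives in both lines and KCNJ6 below, while NEFL and PHACTR4 lie near 0.

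The lists of other genes by function were also drawn up with earlier results known. Of 32 other genes of the axonal and dendritic cytoskeleton, doxycycline raised 21 and lowered 2 in sh1487 with cDNA (median 0.43, against -0.02 over all genes), beside shares over all genes of 28.3% higher and 31.3% lower. In shNT with cDNA it raised 8 and lowered 5, beside 16.3% and 15.6% over all genes. TUBA1A, a neuronal α-tubulin, averaged 1170 CPM on doxycycline and 543 CPM without in sh1487 with cDNA (limma adjusted p = 1.62e-13), and MAP6, which stabilizes microtubules, averaged 5.53 CPM on doxycycline and 1.33 CPM without (limma adjusted p = 1.13e-12). Of 37 genes of vesicle release, 19 rose and 7 fell in sh1487 with cDNA, and 8 rose and 6 fell in shNT with cDNA. SYN1, the synapsin I gene, averaged 15.4 CPM on doxycycline and 5.18 CPM without in sh1487 with cDNA, and SV2B, a vesicle glycoprotein gene, fell to 1.09 CPM, against 3.08 CPM without. Of 25 glutamate receptor and postsynaptic genes, 8 rose and 3 fell in sh1487 with cDNA, and 3 rose and 4 fell in shNT with cDNA, with NRXN2, a presynaptic adhesion gene, at 17.6 CPM on doxycycline and 3.45 CPM without in sh1487 with cDNA.

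The other 4 lists are smaller and are read beside the same shares over all genes. Of 16 potassium channel genes, 7 rose and 4 fell in sh1487 with cDNA, and 4 rose and 0 fell in shNT with cDNA. Of 18 neuronal RNA-binding genes, 7 rose and 2 fell in sh1487 with cDNA, and 3 rose and 3 fell in shNT with cDNA. Of 14 genes of NAD synthesis and axon survival, 4 rose and 4 fell in sh1487 with cDNA, and 3 rose and 0 fell in shNT with cDNA. NMNAT1 and NMNAT3, the nuclear and mitochondrial relatives of NMNAT2, fell in sh1487 with cDNA by 0.61 and 0.62 (limma adjusted p = 3.76e-06 and 1.03e-07). Of 18 genes of the REST complex and neuronal transcription, 9 rose and 3 fell in sh1487 with cDNA, and 2 rose and 3 fell in shNT with cDNA, with the corepressor gene RCOR2 at 13.4 CPM on doxycycline and 5.0 CPM without in sh1487 with cDNA. Whether any list differs from the rest of the genes was not tested.

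**Figure D4:**
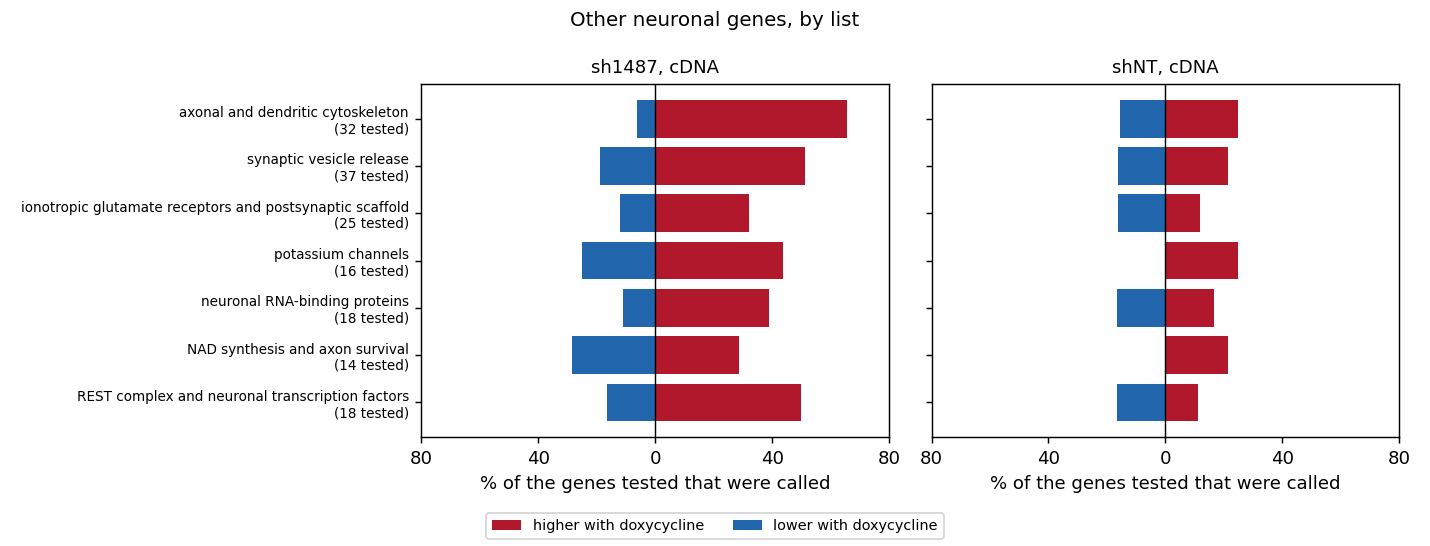
Share of the tested genes of each list (rows) that limma called as higher (red, to the right) or lower (blue, to the left) with doxycycline in sh1487 with cDNA (left) and shNT with cDNA (right), in percent. In the cytoskeleton list 21 of 32 genes were called higher in sh1487 with cDNA and 8 of 32 in shNT with cDNA.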

How the data were processed

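RNA-seq of COLO320DM xenograft tumours was deposited as 1 table over 24 libraries. Its values are a signal in CPM: read counts scaled by the authors to effective library sizes. Per the submitters' processing notes the tools were Trimmomatic 0.39, STAR 2.7.7a, featureCounts of Subread 2.4.2 and edgeR 4.0.2, with GRCh38. None of these tools separates mouse reads, so reads of the mouse host may be counted in the values, which was not tested. Whole reads were recovered for 100.0% of values (tolerance 0.001 of a read), giving 44004848 to 80202279 reads per library. The main test was limma 3.58.1 (R 4.3.3, trend) on log2(CPM + 1), 1 model of 8 group means over 24 libraries, for 13832 genes at 1 CPM or more in at least 3 libraries, which removed 287, with Benjamini-Hochberg adjustment and a threshold of 0.05. The method was tested on simulated data. Alternatives were other scalings, pseudocounts and filters, fits of the compared groups only, the replicate number as a block, edgeR 4.0.16 and DESeq2 1.42.0 on the recovered reads, and each library left out.

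The members and the gene lists were chosen with earlier results of these data known. Named were all members, CTNNB1, up to 4 called genes per list with the smallest p for doxycycline in sh1487 with cDNA, the 2 genes most correlated with each member, and paralogs. Same-numbered libraries deviated together in the cDNA comparison of shNT (correlations 0.105, 0.165 and 0.648), a pairing taken from these data. For doxycycline in shNT with cDNA the correlations were 0.0169, 0.821 and 0.84, and no block within the libraries compared was run there. The other pairs of groups compared each held a negative correlation. Promoter windows came from RefSeq (GRCh38.p14). Coordinates and overlaps came from GENCODE on GRCh38, which held 14106 of 14119 gene IDs. Floors of 3 reads cover counting error only.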

Additional observations from a re-analysis of the deposited data

Results flagged for a closer look

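With cDNA present, the effect of doxycycline in sh1487 minus that in shNT passed the limma test of the difference itself for 6 genes, by 0.712 for STMN2, 3.09 for NEFH, 3.04 for ELAVL3, 1.76 for TPPP3, 0.298 for GRIK2 and -1.75 for KCNJ6 (log2 of CPM + 1). The values for STMN2 and GRIK2 did not pass with edgeR or DESeq2.

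In other pairs of lines every library on doxycycline lay on one side of those without it in one line and on the opposite side in the other line, and these differences were not tested. Between sh1487 and shNT without cDNA, the difference of effects was 4.95 for NEFH, 3.78 for ELAVL3, 3.01 for GRIK2 and 3.46 for PHACTR1. Between sh1487 without cDNA and sh1487 with cDNA, it was -0.664 for UNC13A, 2.66 for GRIK2 and 3.22 for PHACTR1. The libraries of sh1487 without cDNA were used to choose the genes. Groups of 3 libraries were not searched for single outlying libraries.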

How the results depend on the processing

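Of 63 results for single genes, 53 kept their side of the threshold under every alternative run. The 63 include the 9 for doxycycline in sh1487 without cDNA, which are no result because that response was used to choose the genes. They also include the difference between the lines with cDNA for the 6 genes at 1 CPM only in sh1487, for which no test is read. The tally is therefore no measure of how firm the tested results are. Of 1071 alternative values, 23 fell short of the threshold, 8 newly passed it and 0 called values changed sign, while 29 values that were not called changed sign. The number of members called for doxycycline in shNT with cDNA was 5 with a pseudocount of 0.1, against 3. For doxycycline in shNT it was 3 with a pseudocount of 5, against 5, and 3 to 4 with a library left out. For the cDNA in shNT it was 2 with a pseudocount of 5 and 2 with DESeq2, against 1. The cause was not tested. With the replicate block the members called stayed at 9, 5, 8, 3, 6, 1 and 8 over the 7 comparisons. For the cDNA in shNT, genes called over the table numbered 755 without the block, 1016 with it and 1512 with the replicate block within the 6 libraries compared, an alternative chosen after seeing the data, and the call of KCNJ6 held in each. They numbered 62 with only the groups compared in the fit, 1214 with DESeq2 and 216 to 454 in the 3 cases where leaving out 1 library moved the count by over 1.5 times. For doxycycline in shNT with cDNA they numbered 547 with only the groups compared, against 4406. Scaling by library size moved the median of all genes by 0.102 for doxycycline in sh1487 without cDNA. Depth limits STMN2 in shNT, at 0 to 4 reads a library.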

Other observations

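Some lists of neuronal genes also leaned to one side between the lines without doxycycline, and others did not, which was not tested. With cDNA, 26 of 37 genes of vesicle release were higher and 5 lower in sh1487 than in shNT (median 0.59, against 0.01 over all genes), and 12 of 16 potassium channel genes were higher and 1 lower (median 0.79). Over all genes, limma called 32.4% as higher and 32.6% as lower in this comparison. Of the cytoskeleton list, 15 of 32 were higher and 7 lower, and of the NAD list 8 of 14 and 1. Nearer to even were the postsynaptic list (9 and 8 of 25), the RNA-binding list (7 and 6 of 18) and the REST list (6 and 5 of 18). CPLX1, a complexin that clamps and triggers vesicle fusion, averaged 13.0 CPM in sh1487 and 0.598 CPM in shNT. SCRT1, a neuronal zinc finger repressor of the REST list, averaged 31.7 CPM in sh1487 and 0.127 CPM in shNT.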
